A study of Mus musculus with 29 samples.

Results

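Kupffer cells (KCs) of wild-type mouse liver were compared with the Ly6C-low macrophages of wild-type liver, gene by gene, in the RPM (reads scaled to a fixed total per library) table of the series. The 7 libraries compared were 4 of KCs and 3 of Ly6C-low macrophages, out of 29 libraries in all. The comparison ran over the 12025 autosomal genes that reached 1 RPM in at least 3 of the 7 libraries, out of 21922 autosomal genes and 23930 genes in the table. A gene could pass this filter through the libraries of 1 group alone. Both groups came from untreated wild-type C57BL/6 mice, the labels give neither sex nor age, and the cells were sorted from digested liver and lysed without culture. The labels give KCs as F4/80(+), CD11b(int), Tim4(+) and PDCA-1 low cells, whereas the study's methods describe the KC gate by F4/80 and low CD11b from a stain without Tim4. By their labels, Ly6C-low macrophages were cells low for Ly6C and positive for CD11b and Fcgr4 that lacked Ly6G, SiglecF and NK1.1. No transgene, deletion or agent was present in either group. The series also holds macrophages of RNase T2-deficient (Rnaset2-/-) mice. Their hepatic Ly6C-low libraries are read at the end of this section, and all of them enter the fit of all 29 libraries. The labels number the libraries as replicates and do not say whether they came from separate animals, so that the p-values below measure the spread between these libraries, which may be technical.

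KCs are the macrophages that live inside the liver sinusoids. They are held in place by signals from the sinusoidal endothelium and stellate cells, clear particles and aged red cells from portal blood, and recycle the iron of those cells. Their identity is known to rest on the nuclear receptor LXR-alpha, on Notch and transforming growth factor signals, and on factors such as Id3 and SpiC. Ly6C-low macrophages are of monocyte origin. Their blood counterparts depend on the nuclear receptor Nr4a1 and patrol the vessel wall, and recruited monocytes can take up KC traits when the resident cells are lost.

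The 7 libraries held 11175843 to 12207718 reads, with a median of 11923044, so that 3 reads, the floor used here, corresponded to 0.246 to 0.268 RPM. Intervals from such counts would cover counting error only. KC replicate 3 stood apart from the other KC libraries. The summed level of the genes listed for KC identity was 29302, 30544, 11714 and 31660.2 RPM in KC replicates 1 to 4, against 1777, 2578 and 2510.1 RPM in the Ly6C-low libraries. The summed level of 20 hepatocyte genes was highest in that library, at 2409, 2146, 6909.9 and 2235 RPM in the KC libraries against 65.6, 279.6 and 228 RPM in the Ly6C-low libraries. Genes of the Y chromosome summed to 52.7 and 52.0 RPM in Ly6C-low replicates 2 and 3 and were listed at 0 in the other 5 libraries, while Xist was present in all 7, at 375 to 949 RPM. Only autosomal genes were therefore tested, which leaves any effect of sex on autosomal genes in place. Since Y-linked reads were found in Ly6C-low libraries alone, such an effect cannot be told apart from cell type in Ly6C-low replicates 2 and 3.

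KCs and Ly6C-low macrophages differed over a large part of the genes tested. At an adjusted p below 0.05 and a change of more than 1.5-fold (limma), 3125 of the 12025 genes were higher in KCs (26.0%) and 2867 were lower (23.8%), while 6033 passed in neither direction. Changes of more than 4-fold were called for 1075 genes that were higher and 481 that were lower, and changes of more than 16-fold for 128 and 79 genes. These values rest on factors that put the middle of the distribution at 0, where the median log2 fold change of all tested genes was 0.02. In the RPM as deposited that median was 0.56, and 5311 genes were called higher and 1315 lower. The counts given below for a group of genes are therefore relative to the middle of all genes, and the counts in the RPM as deposited are given beside the groups whose balance turned and beside some others. Each count is to be read against the 26.0% higher and 23.8% lower of all tested genes. Fold changes are on the log2(scaled RPM + 1) scale, as KC minus Ly6C-low with the standard error (SE), and understate the change of genes that are low in 1 of the groups. In bulk libraries such as these, fewer cells of a type and less RNA per cell cannot be told apart.

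**Figure D1:**
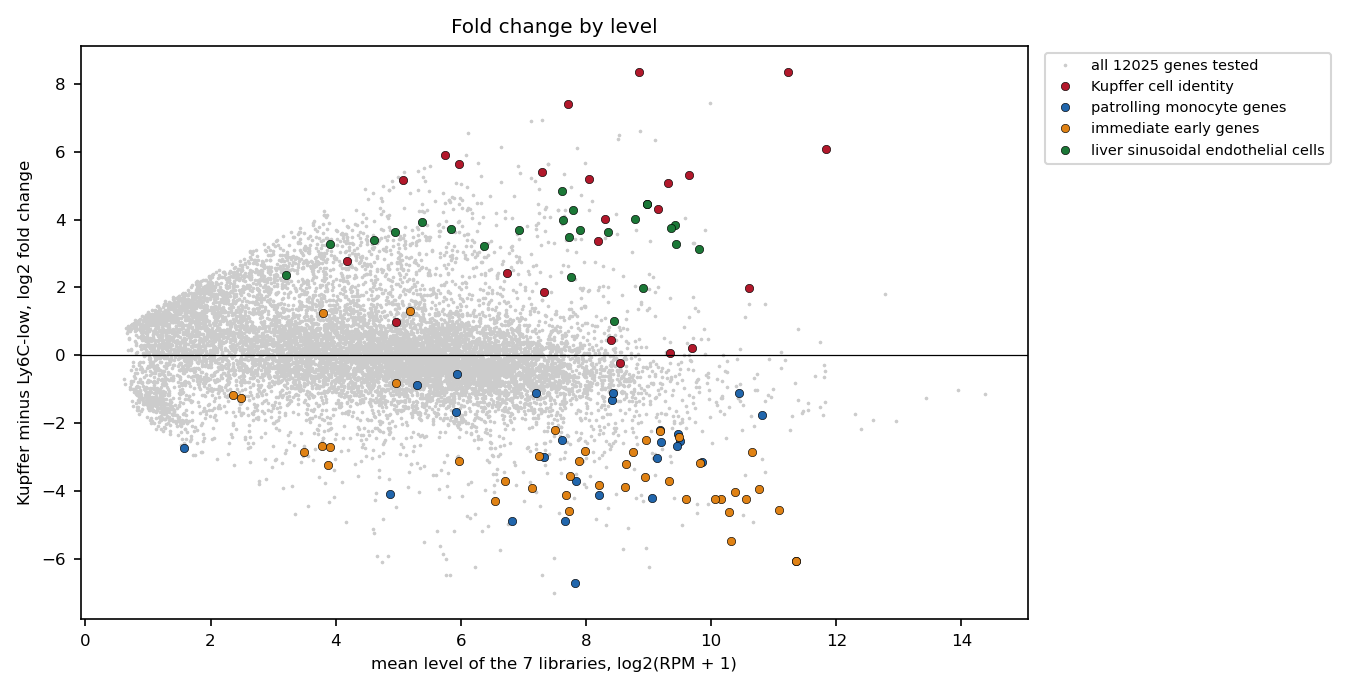
The log2 fold change of each tested gene (y axis, KC minus Ly6C-low) is plotted against its mean level in the 7 libraries (x axis, log2(RPM + 1)), with 12025 genes in grey and 4 gene lists in colour. KC identity and endothelial genes lie above 0 apart from Adgre1, and patrolling monocyte and immediate early genes lie below it apart from 2 of the latter.

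The genes of the labelled surface markers were read first, because they define the groups and are no finding of their own. Timd4, which encodes the Tim4 protein that the labels name for KCs, was at 415, 448, 166 and 431 RPM in KC replicates 1 to 4 and at 0.911, 0.261 and 0.537 RPM in the Ly6C-low libraries. The groups were far apart, with KC replicate 3 the lowest of the KC libraries. Itgam, which encodes CD11b, was at 93.4, 131, 124 and 119 RPM in KCs and 1518, 1338 and 1404 RPM in Ly6C-low macrophages, a difference of -4.20 ± 0.16. Fcgr4 was at 282, 285, 173 and 329 RPM in KCs against 501, 405 and 398 RPM, so that its transcript was lower in KCs (-1.33 ± 0.22) but far from absent. Adgre1, which encodes F4/80, did not pass the test, with levels of 587, 429, 201 and 467 RPM in KCs and 331, 269 and 318 RPM in Ly6C-low macrophages and a difference of -0.23 ± 0.31, which turned to 0.36 in the RPM as deposited and to 0.10 without KC replicate 3. Bst2, the gene of PDCA-1, was higher in KCs (1.10 ± 0.17) although the labels call these cells PDCA-1 low. Klrb1c, the gene of the NK1.1 antigen that the labels exclude for Ly6C-low macrophages and do not name for KCs, was at 27.4, 14.8, 42.4 and 25.7 RPM in KCs and at 1.32, 0.61 and 0.268 RPM in Ly6C-low macrophages. Siglecf overlapped between the groups, at 10.2, 1.75, 0.524 and 17.6 RPM in KCs and 2.15, 2.27 and 3.04 RPM in Ly6C-low macrophages (0.22 ± 0.71), and Ly6g was at or near 0 in every library, at 0.998 RPM in KC replicate 2 and listed at 0 in the other 6.

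The largest rises in KCs were those of Clec4f (8.36 ± 0.45) and C6 (8.36 ± 0.40). Clec4f, a C-type lectin that marks mouse KCs, was at 4823, 4819, 1674 and 5470.5 RPM in the KC libraries and 15.1, 4.01 and 5.19 RPM in the Ly6C-low libraries (limma adjusted p = 3.37e-07). C6, a component of the terminal complement pathway, was at 1002, 824, 325 and 1050.2 RPM against 0.579, 0.261 and 1.43 RPM (limma adjusted p = 1.75e-07). Clec4f (chr6:83644542-83656187) and C6 (chr15:4727175-4814967, both in GRCm38.p6) kept the groups apart in every library, as the rule that chose the largest changes required. Both were lowest among KCs in replicate 3. The remaining 8 of the 10 largest rises fell into different kinds. Timd4 is a KC gene, and Pax5, Pou2af1 and Fcmr are genes of B cells. Cela2a, Ctrb1, 2210010C04Rik and Cpa1 are genes of the exocrine pancreas.

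The largest fall was that of Retnla, a secreted resistin-like protein of alternatively activated macrophages, at 2.95, 9.48, 1.57 and 3.44 RPM in KCs and 418, 389 and 431 RPM in Ly6C-low macrophages (-7.00 ± 0.37, limma adjusted p = 2.9e-07). Retnla lies at chr16:48842551-48844461. Ace, the angiotensin-converting enzyme and a known gene of patrolling monocytes, was at 7.29, 6.41, 8.38 and 4.03 RPM against 607, 489 and 459 RPM (-6.70 ± 0.21). Serpinb10, a serine protease inhibitor, was at 3.85, 7.07, 4.37 and 4.53 RPM against 374, 369 and 327 RPM (-6.49 ± 0.20). These 3 genes stayed below 10 RPM in each KC library and within a narrow range in the Ly6C-low libraries. Cd209a, a C-type lectin of monocyte-derived cells, differed by a similar amount (-6.48 ± 0.26), as did Tiam2 (-6.48 ± 0.46) and Cyp2ab1 (-6.24 ± 0.20). Saa3, an acute phase protein, was at 0.164, 0.333, 0 and 0.168 RPM in KCs and 51.9, 62.4 and 65.6 RPM in Ly6C-low macrophages (-6.08 ± 0.25). Nr4a1, on which patrolling monocytes depend, was at 126, 148, 144 and 112 RPM against 5025, 6375 and 6413 RPM (-6.07 ± 0.18). Its high level was not particular to Ly6C-low macrophages, since it was also high in Ly6C-high macrophages of wild-type liver, as given at the end of this section. Alox15, a lipoxygenase, had the widest spread of these genes within the Ly6C-low group, at 69.8, 98.6 and 197 RPM, and was at 0.164, 3.33, 1.75 and 1.51 RPM in KCs (-6.00 ± 0.44).

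**Figure D2:**
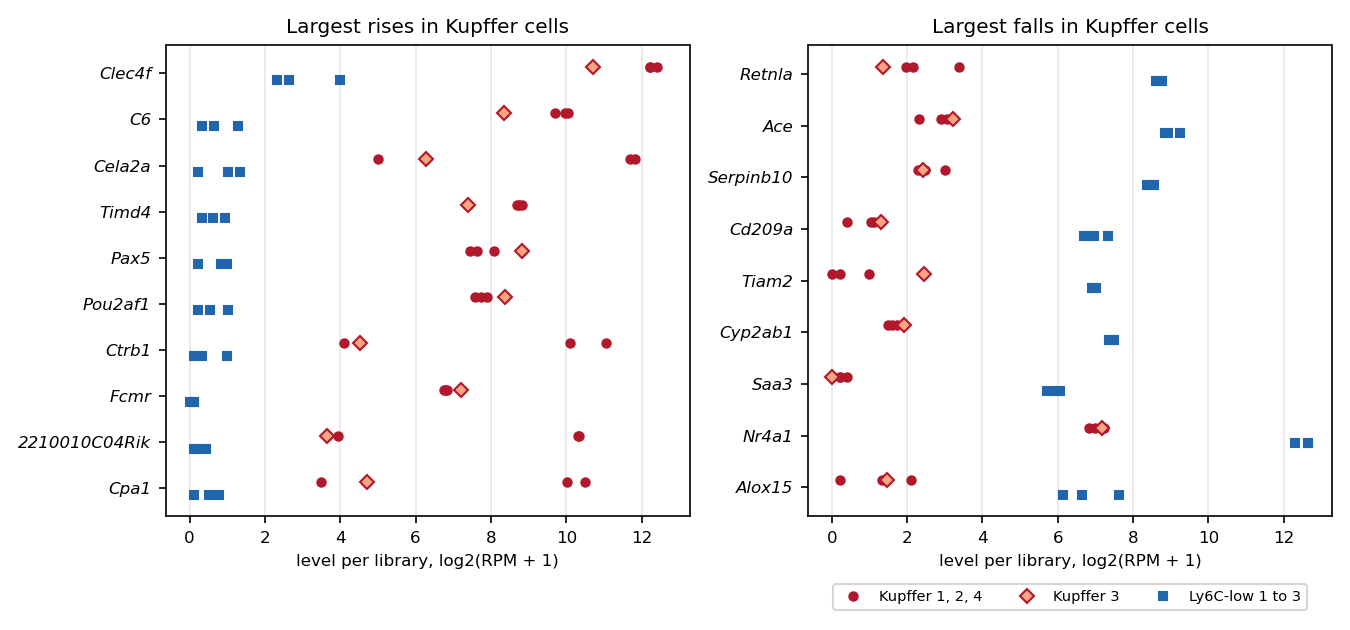
Levels per library (x axis, log2(RPM + 1)) of the 10 genes with the largest rise (left) and 9 of the 10 with the largest fall (right) in KCs, with each point 1 library and KC replicate 3 drawn as a diamond. The 4 KC and 3 Ly6C-low libraries do not overlap for any of the 19 genes, which the rule that chose them required. The 4 pancreatic genes split the KC libraries into replicates 1 and 4 against 2 and 3.

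The promoter windows of the 3 KC identity genes with the largest rise and of the gene with the largest fall are shown to give the sequence at the start of the genes that separate the groups most. Each runs from 250 bases before to 50 bases after 1 annotated start of transcription (RefSeq, GRCm38.p6), 5′ to 3′ on the gene's strand. Clec4f lies on the minus strand at chr6:83656067-83656366, C6 on the plus strand at chr15:4726960-4727259, Timd4 on the plus strand at chr11:46810549-46810848 and Retnla on the plus strand at chr16:48842359-48842658. Capitals mark matches, on either strand, to any of 9 short motifs that were searched, which are spelled out below.
Clec4f: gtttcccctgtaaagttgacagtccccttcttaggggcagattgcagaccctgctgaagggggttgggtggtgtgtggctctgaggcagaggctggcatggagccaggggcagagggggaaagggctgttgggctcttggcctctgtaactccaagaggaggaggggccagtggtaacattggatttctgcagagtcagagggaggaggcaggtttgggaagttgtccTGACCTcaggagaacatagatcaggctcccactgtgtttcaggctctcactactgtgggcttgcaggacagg
C6: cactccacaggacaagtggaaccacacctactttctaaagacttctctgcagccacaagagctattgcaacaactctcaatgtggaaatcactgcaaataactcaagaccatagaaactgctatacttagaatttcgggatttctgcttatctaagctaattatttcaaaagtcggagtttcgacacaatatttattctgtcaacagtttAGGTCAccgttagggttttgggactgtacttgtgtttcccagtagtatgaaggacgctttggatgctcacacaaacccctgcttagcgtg
Timd4: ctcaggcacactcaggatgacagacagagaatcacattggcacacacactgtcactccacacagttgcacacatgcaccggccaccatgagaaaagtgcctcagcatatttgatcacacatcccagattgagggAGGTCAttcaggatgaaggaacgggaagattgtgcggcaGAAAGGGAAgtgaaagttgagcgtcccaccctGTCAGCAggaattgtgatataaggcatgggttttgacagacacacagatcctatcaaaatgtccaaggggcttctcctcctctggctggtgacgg
Retnla: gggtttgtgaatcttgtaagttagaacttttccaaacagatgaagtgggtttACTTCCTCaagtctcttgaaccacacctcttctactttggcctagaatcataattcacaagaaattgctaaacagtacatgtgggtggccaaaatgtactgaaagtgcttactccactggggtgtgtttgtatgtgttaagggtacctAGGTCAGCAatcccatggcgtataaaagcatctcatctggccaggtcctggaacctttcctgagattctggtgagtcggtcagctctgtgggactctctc
All 4 windows held the core motif of nuclear receptors, AGGTCA, which on the printed strand began at base 229 in Clec4f (in reverse complement), 211 in C6, 135 in Timd4 and 201 in Retnla. The Timd4 window also held the interferon response motif GAAANNGAA, from base 174, and the MAF motif TGCTGAC in reverse complement, from base 206. The Retnla window also held the PU.1 motif GAGGAAGT in reverse complement, from base 53, and a MAF motif in reverse complement from base 203, which overlaps the nuclear receptor motif.

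The same motifs were counted in the promoters of the 100 genes with the largest rise and the 100 with the largest fall. The table held 99 promoters of 76 genes for the rises and 100 promoters of 76 genes for the falls, and 31396 autosomal promoters in all. AGGTCA was found in 19.2% of the promoters of the rises, in 18.0% of those of the falls and in 16.3% of all promoters. The widest gap was that of the E-box of MiT/TFE factors, CACGTG, a palindrome, in 2.02% of the rises, 13% of the falls and 7.14% of all. The AP-1 motif TGAGTCA was found in 7.07%, 7.0% and 5.26%, the MAF motif in 8.08%, 5.0% and 4.63%, and the RBPJ motif GTGGGAA in 9.09%, 5.0% and 6.33%. PU.1 motifs were found in 3.03%, 4.0% and 3.25%, interferon response motifs in 10.1%, 11% and 8.52%, and the NF-kB motif GGGANTTCC in 3.03%, 1.0% and 1.71%. The SMAD motif GTCTAGAC was found in none of the rises, 2.0% of the falls and 0.223% of all. These shares are descriptions with no test.

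KC identity genes were higher in KCs almost throughout. Of 26 listed genes, 25 were in the table and 24 were tested, among them the sort genes Timd4 and Adgre1. Of these, 20 were higher and 0 lower (limma, and 0 lower also by DESeq2, by edgeR or at an unadjusted p below 0.05), with a median log2 fold change of 4.38 against 0.02 over all tested genes. After Clec4f, C6 and Timd4 came Cd5l, a secreted scavenger protein of tissue macrophages, at 7317, 8187, 2098 and 7779 RPM in KCs and 46.6, 47.0 and 70.7 RPM in Ly6C-low macrophages (6.08 ± 0.43). Pcolce2 was at 104, 133, 30.2 and 101 RPM against 0, 0.174 and 0.179 RPM (5.90 ± 0.44). Vsig4, the complement receptor CRIg, lies on the X chromosome and was outside the fit, at 2313, 2156, 1239 and 3165 RPM against 19.7, 19.96 and 28.1 RPM (exact permutation test, two-sided p = 0.0571, the smallest that 4 against 3 libraries allow). Id3, a factor on which KCs depend, did not pass the test, at 691, 808, 729 and 828 RPM in KCs and 331, 521 and 625 RPM in Ly6C-low macrophages (0.08 ± 0.23), and was called higher in the RPM as deposited (0.68). Hmox1, the inducible heme oxygenase, overlapped between the groups, at 1119.8, 906, 509 and 1526 RPM and 299, 748 and 688 RPM (0.21 ± 0.41). The KC identity genes were low in replicate 3 as a group, with a median ratio of 0.39 between replicate 3 and the mean of replicates 1, 2 and 4, and without that library 21 members were called higher and 0 lower. Without KC replicates 1 and 4, the filter on low values left 20 members, of which 16 were called higher and 0 lower.

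Genes of patrolling monocytes were higher in Ly6C-low macrophages. Of 26 tested members, 25 were lower in KCs and 0 higher (limma, and 0 higher also by DESeq2, by edgeR or at an unadjusted p below 0.05), with a median of -2.61. Eno3, a muscle-type enolase, was at 21.0, 18.1, 24.7 and 23.3 RPM in KCs and 411, 469.8 and 453 RPM in Ly6C-low macrophages (-4.88 ± 0.17). Pglyrp1, a peptidoglycan recognition protein, was at 11.5, 12.4, 14.9 and 7.97 RPM against 230.4, 255 and 249 RPM (-4.88 ± 0.20). Ceacam1, an adhesion molecule, differed by -4.19 ± 0.30, and Cx3cr1, the fractalkine receptor, was at 49.8, 36.0, 41.7 and 32.0 RPM against 106, 70.5 and 82.0 RPM (-1.68 ± 0.19). Lyn, a Src-family kinase, was the member that did not pass (-0.56 ± 0.45), at 77.0, 71.9, 26.2 and 63.3 RPM in KCs and 82.4, 24.2 and 79.3 RPM in Ly6C-low macrophages, and without Ly6C-low replicate 2 it was called lower (-1.12, limma adjusted p = 0.0394). Genes listed for classical monocytes were also lower in KCs, 18 of 24 tested, with 1 higher and a median of -2.27. Trem1, an amplifying receptor of inflammation, was at 6.96, 17.1, 5.15 and 8.39 RPM in KCs and 317, 485 and 417 RPM in Ly6C-low macrophages (-5.96 ± 0.33), Clec4e (Mincle) differed by -5.50 ± 0.21, Cxcr4 by -4.70 ± 0.23 and Ccr2, the receptor by which monocytes leave the marrow, by -2.44 ± 0.22.

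Transcription factors of macrophages were called in both directions. Of 38 tested members, 9 were higher in KCs and 18 lower, with a median of -0.50, and in the RPM as deposited the balance was even, with 14 higher and 14 lower. The share called higher was no larger than the 26.0% of all tested genes, and the share called lower was above their 23.8%. Nr1h3, which encodes LXR-alpha, was at 263, 322, 169 and 234 RPM in KCs and 42.6, 50.6 and 36.5 RPM in Ly6C-low macrophages (1.87 ± 0.22), and its partner Rxra was at 897, 979.7, 663 and 978 RPM against 107, 183 and 142 RPM (2.02 ± 0.23). Both genes were apart in every library. Tfec, a MiT/TFE family factor of macrophages, rose by 2.35 ± 0.20, Maf (c-Maf) by 1.96 ± 0.18, Nfia by 2.39 ± 0.20 and Zeb1 by 3.25 ± 0.36. Zeb1 and Nfia were highest in KC replicate 3, at 2.49 and 1.59 times the mean of the other KC libraries, and Tfec was not (0.774 times). Besides Nr4a1, the largest falls were those of Bhlhe40 (-4.12 ± 0.22), Klf4 (-4.10 ± 0.17), Pparg (-4.02 ± 0.28) and Cebpb (-3.14 ± 0.32), of which Cebpb is needed for Ly6C-low monocytes. Klf4 was at 40.1, 35.2, 30.6 and 39.9 RPM in KCs and 440.3, 357 and 484 RPM in Ly6C-low macrophages.

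Targets of LXR, the oxysterol-sensing receptor that drives cholesterol export and fatty acid synthesis, were higher in KCs. Of 21 tested targets, 12 were higher and 2 lower, with a median of 1.23. Besides Cd5l, Scd1, the stearoyl-CoA desaturase, was at 309, 318, 417 and 306 RPM in KCs and 4.72, 19.1 and 19.1 RPM in Ly6C-low macrophages (4.09 ± 0.40). Apoc1, an apolipoprotein, was at 1586, 1459, 990.2 and 1145 RPM against 17.3, 108 and 66.4 RPM (4.04 ± 0.50), and Lpl, lipoprotein lipase, rose by 2.31 ± 0.37. Mertk, the receptor by which macrophages engulf apoptotic cells, was at 379.7, 345, 141 and 334 RPM against 15.1, 17.7 and 21.8 RPM (3.31 ± 0.32). Apoe did not pass (0.04 ± 0.17) but was called higher in the RPM as deposited (0.64), and Arl4c (-1.76 ± 0.17) and Smpdl3a (-1.65 ± 0.24) were lower in KCs. Scd1 and Apoc1 are also abundant in hepatocytes, and Scd1 was highest in KC replicate 3, where the hepatocyte genes were highest, while Lpl was lowest there (0.315 times the other KC libraries). The part of hepatocyte RNA in the LXR result was not tested.

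Genes of sterol synthesis and uptake went the other way. Of 23 tested members, 12 were lower in KCs and 4 higher, with a median of -0.67. In the RPM as deposited this balance was not seen, with 6 higher and 6 lower. Sqle, squalene epoxidase, was at 12.4, 3.58, 19.5 and 11.99 RPM in KCs and 45.6, 29.3 and 31.7 RPM in Ly6C-low macrophages (-2.23 ± 0.41). Insig1, which holds the sterol sensor in the endoplasmic reticulum, was at 33.8, 40.2, 62.3 and 56.9 RPM against 86.3, 135 and 127 RPM (-1.85 ± 0.26), and Srebf2, the master factor of the pathway, at 20.6, 28.2, 25.0 and 22.5 RPM against 47.4, 41.7 and 36.0 RPM (-1.35 ± 0.18). These 3 genes were lower in each KC library than in any Ly6C-low library, also in the RPM as deposited. Among the members that rose, Stard4, a sterol carrier, was at 48.9, 62.8, 94.7 and 53.3 RPM against 21.1, 19.8 and 16.4 RPM (1.09 ± 0.23). Without both Ly6C-low libraries that held Y-linked reads, 7 members were called lower and the 4 rises were no longer called (limma). They came down to 1 without Ly6C-low replicate 3 and to 2 without KC replicate 1, KC replicate 4 or Ly6C-low replicate 1.

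Receptors for apoptotic cells and modified particles were higher in KCs as a list, 16 of 27 tested, with 4 lower and a median of 1.15. Without KC replicates 1 and 4, 6 were called lower, and with the replicate number as a block in the fit, 7. Marco, a scavenger receptor for bacteria and particles, was at 295, 369, 124 and 291 RPM in KCs and 2.07, 3.92 and 3.67 RPM in Ly6C-low macrophages (5.41 ± 0.35). Cd163, the receptor for haptoglobin-bound hemoglobin, was at 432, 658, 198 and 544 RPM against 8.61, 6.97 and 5.19 RPM (5.19 ± 0.35). Mrc1, the mannose receptor, was at 1352, 1600.1, 1340.4 and 1339 RPM against 76.7, 107 and 96.7 RPM (3.31 ± 0.17), and Axl, a partner of Mertk among the TAM receptors, was at 645, 527, 201 and 617 RPM against 87.9, 107 and 106 RPM (1.57 ± 0.36). Marco and Cd163 were lowest in KC replicate 3, and Mrc1 was not. Stab2, the hyaluronan receptor of sinusoidal endothelium, was at 289, 494, 519.8 and 199.7 RPM against 4.72, 16.3 and 16.5 RPM (4.29 ± 0.44) and rose in KC replicate 3 with the endothelial genes. Cd36, a fatty acid and particle receptor (-1.12 ± 0.16), and Abca7 (-2.18 ± 0.18) were lower in KCs, and Cd36 did not pass in the RPM as deposited (-0.52, a change of less than 1.5-fold). Without both Ly6C-low libraries that held Y-linked reads, 12 members were called higher with the filter applied again. With the same genes of the whole comparison tested, 9 were called higher.

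Genes of heme and iron handling were called higher for 9 of 22 tested members and lower for 5, with a median of 0.87, and in the RPM as deposited the counts were 15 higher and 1 lower. The share called lower was close to the 23.8% of all tested genes. Slc40a1, ferroportin, which exports iron recovered from red cells, was at 1677, 1470.5, 483 and 1886 RPM in KCs and 16.3, 19.96 and 22.7 RPM in Ly6C-low macrophages (5.32 ± 0.41). Slc48a1, which carries heme out of the phagolysosome, was at 257, 240.1, 134 and 239 RPM against 38.3, 37.0 and 35.2 RPM (1.90 ± 0.23). Both were lowest among KCs in replicate 3, and both were apart in every library. Steap4, a metalloreductase, rose by 3.90 ± 0.45 from levels at or below 0.436 RPM in Ly6C-low macrophages. Hfe, a regulator of iron uptake, was called lower (-0.99 ± 0.24), although its RPM as deposited overlapped between the groups and did not pass (-0.39).

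Complement genes were higher in KCs for 14 of 20 tested members and lower for 4, with a median of 1.64. Fcna, a ficolin that starts the lectin pathway, was at 1177, 1323, 379 and 1007 RPM in KCs and 19.8, 34.9 and 33.2 RPM in Ly6C-low macrophages (4.31 ± 0.40). C1qb, a chain of C1q, was at 3217, 2868, 1442 and 3600.2 RPM against 433, 761 and 689.8 RPM (1.51 ± 0.33), and C2 at 41.1, 46.0, 16.8 and 28.5 RPM against 0.497, 0.697 and 0.895 RPM (3.84 ± 0.34). These 3 genes were lowest among KCs in replicate 3. Cd55 and Clu, both regulators of complement, rose by 3.35 ± 0.47 and 3.30 ± 0.46 and were highest in replicate 3. The members that fell included the complement receptor chains Itgam, which is a sort gene, and Itgax (-3.03 ± 0.33). The 4 falls of this list came down to 2 without KC replicate 2, Ly6C-low replicate 2 or Ly6C-low replicate 3. C1qa and Cfd were near the floor in all libraries of this amplicon panel and were not tested.

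Genes of antigen presentation by MHC class II were lower in KCs for 12 of 23 tested members and higher for 4, with a median of -0.59. In the RPM as deposited this balance was not seen, with 6 higher and 5 lower. H2-Aa was at 2158, 1745, 2081 and 2352 RPM in KCs and 3615, 4801 and 4277 RPM in Ly6C-low macrophages (-1.62 ± 0.21), and H2-Eb1 at 2567, 1848, 2249 and 2392 RPM against 3930.3, 4295 and 3604 RPM (-1.41 ± 0.20). Both were apart in the RPM as deposited, but neither passed in the fit of all 29 libraries, where H2-Aa differed by -1.46 (limma adjusted p = 0.0622) and H2-Eb1 by -1.25 (limma adjusted p = 0.138). H2-Oa, a modulator of peptide loading, fell by 2.08 ± 0.21. The ligands of PD-1 were lower in KCs, Cd274 (PD-L1) at 98.4, 84.3, 69.0 and 96.5 RPM against 228, 229 and 216 RPM (-1.97 ± 0.17) and Pdcd1lg2 (PD-L2) by -2.55 ± 0.54. Ctsl, a lysosomal protease, rose by 1.52 ± 0.26. Without both Ly6C-low libraries with Y-linked reads, 4 members were called lower and 1 higher, and the fit of all 29 libraries called 4 lower and 4 higher. The 4 rises came down to 1 without Ly6C-low replicate 1 and to 2 without KC replicate 4 or Ly6C-low replicate 3.

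Among 12 tested Fc receptor genes, 5 were higher and 4 lower, against 26.0% and 23.8% of all tested genes. Fcgrt, the neonatal Fc receptor that recycles IgG, was at 1165, 1262, 1224 and 1381 RPM in KCs and 238, 384 and 340.2 RPM in Ly6C-low macrophages (1.40 ± 0.20). Fcgr2b, the inhibitory IgG receptor, was at 9.83, 13.3, 13.9 and 7.63 RPM against 61.7, 58.5 and 57.4 RPM (-2.91 ± 0.22), and Fcer1g, the chain through which activating Fc receptors signal, fell by 2.19 ± 0.21.

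Immediate early genes, which respond within minutes to stimulation, stress and tissue dissociation, had the lowest median of the lists. Of 41 tested members, 38 were lower in KCs and 1 higher, with a median of -3.22. Their summed level was 5371, 4518, 6036 and 5006 RPM in the KC libraries and 38834, 51974 and 55081 RPM in the Ly6C-low libraries. Atf3, a stress-induced factor, was at 98.7, 102, 106 and 74.9 RPM in KCs and 2142, 3309.7 and 3057 RPM in Ly6C-low macrophages (-5.46 ± 0.20). Fos, a subunit of AP-1, was at 298, 164, 419 and 350.3 RPM against 3073, 5137 and 5788 RPM (-4.55 ± 0.33), and Nfkbiz, an inducible regulator of NF-kB, at 174, 138, 194 and 158 RPM against 2674, 2670.5 and 2749 RPM (-4.62 ± 0.16). Tnfaip3 (A20), a feedback inhibitor of NF-kB, fell by 4.58 ± 0.27. The member that rose was Myc, at 55.5, 47.8, 40.7 and 62.3 RPM against 13.5, 8.98 and 19.0 RPM (1.30 ± 0.26), and without KC replicate 2 another member was called higher. Both groups were dissociated, and the part of dissociation in the difference was not tested.

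**Figure D3:**
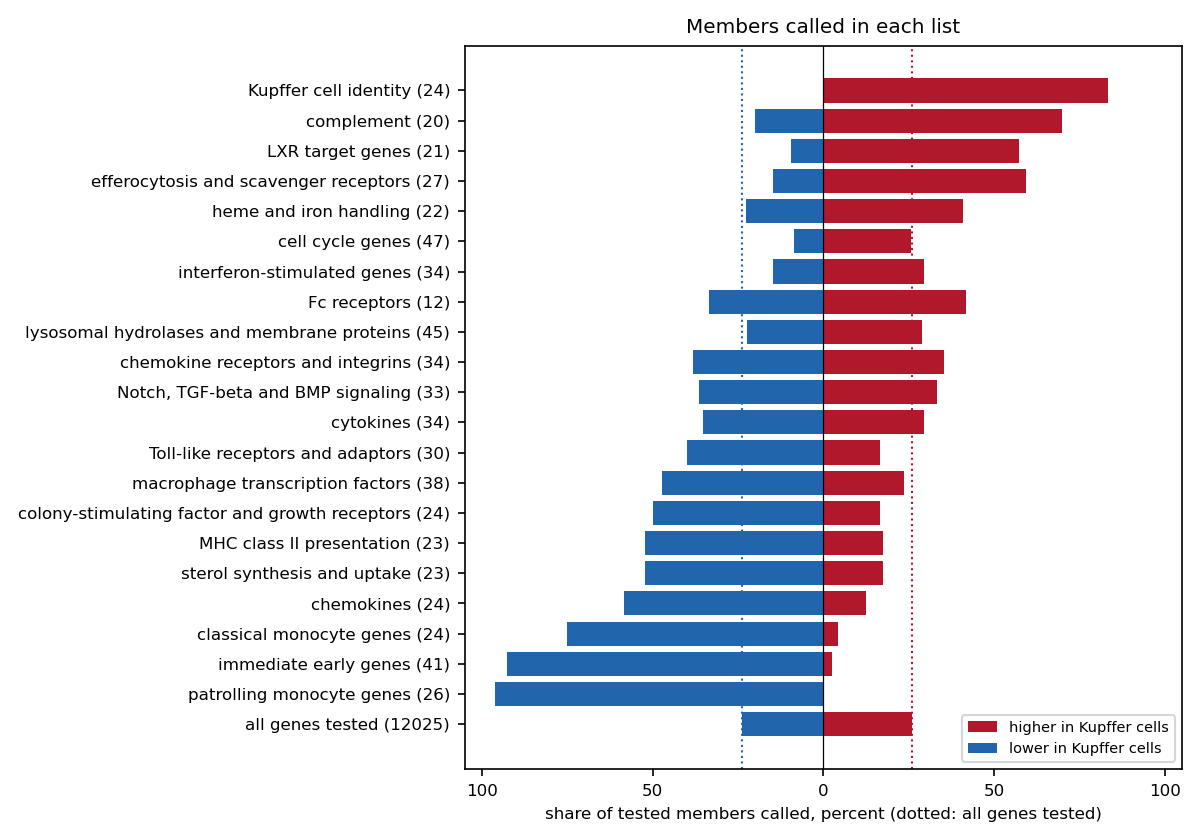
Share of the tested members of each gene list that were called higher in KCs (right, percent) or lower (left, percent), with the number of tested members in brackets and the share over all tested genes as dotted lines (26.0% and 23.8%). KC identity, complement, LXR target and scavenger lists lie to the right, and patrolling monocyte, immediate early and classical monocyte lists to the left.

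Chemokine transcripts were lower in KCs for 14 of 24 tested genes and higher for 3, with a median of -1.40. Ccl3, a chemokine that attracts leukocytes, was at 125, 90.8, 204 and 136 RPM in KCs and 1666, 1709 and 2219 RPM in Ly6C-low macrophages (-4.38 ± 0.25). Cxcl2, a neutrophil attractant, was at 26.5, 36.4, 16.3 and 14.7 RPM against 218, 505 and 506 RPM (-4.64 ± 0.37), and Ccl9 at 87.9, 51.7, 67.5 and 104 RPM against 838, 1041 and 929 RPM (-4.21 ± 0.23). Ccl4 (-3.54 ± 0.29) and Cxcl1 (-2.96 ± 0.48) fell as well. Ccl24, an eosinophil attractant, was higher in KCs at 302, 475, 137 and 298 RPM against 75.9, 88.6 and 92.3 RPM (1.09 ± 0.34, limma adjusted p = 0.0187). Cxcl12, a product of stromal and endothelial cells, rose by 3.87 ± 0.35 and was highest in KC replicate 3. Ccl24 did not pass without Ly6C-low replicate 1 (0.94, limma adjusted p = 0.0712), and 1 chemokine was then called higher. Without both Ly6C-low libraries with Y-linked reads, 9 chemokines were called lower.

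Receptors for chemokines and integrins were called in both directions, 12 of 34 higher and 13 lower, with a median of 0.02, and in the RPM as deposited the balance turned, with 16 higher and 11 lower. Among the falls, the sort gene Itgam and Cxcr4, Itgax and Ccr2 were given above. Itga4, a chain of the VLA-4 integrin, was at 291, 235, 246 and 269.6 RPM in KCs and 1277, 909 and 868 RPM in Ly6C-low macrophages (-2.54 ± 0.17). The largest rise was that of Cxcr5, a receptor of B cells, at 56.4, 48.8, 76.8 and 49.7 RPM against 0.414, 0 and 0 RPM (5.41 ± 0.27). Itga9 was at 169.8, 235, 139 and 191 RPM against 9.27, 12.99 and 15.4 RPM (3.19 ± 0.23), and Itga1, a collagen receptor chain, at 79.3, 94.8, 165 and 62.8 RPM against 3.31, 8.63 and 10.2 RPM (3.06 ± 0.39).

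Cytokine genes were called in both directions, 10 of 34 higher and 12 lower, with a median of -0.27, and in the RPM as deposited the counts were 12 higher and 11 lower. Of all tested genes, 26.0% were called higher and 23.8% lower. Il1b was at 214, 212, 183 and 226 RPM in KCs and 986, 1179 and 1566 RPM in Ly6C-low macrophages (-3.14 ± 0.19). Il10 was at 9.58, 7.65, 6.99 and 13.6 RPM against 14.7, 46.1 and 56.4 RPM (-2.34 ± 0.43), and Tnf at 1.64, 1.58, 1.05 and 0.923 RPM against 11.4, 14.2 and 13.2 RPM (-3.07 ± 0.27). Ifnb1, interferon-beta, was at 0.819, 0, 0.175 and 0 RPM against 4.14, 18.8 and 16.8 RPM (-3.69 ± 0.48), so that it was at or near the floor in KCs. Il6 overlapped in RPM, at 3.77, 2.58, 2.44 and 2.77 RPM against 3.64, 9.76 and 9.75 RPM, and was called lower (-1.56 ± 0.36). Ly6C-low replicate 1 was the lowest of its group for Il10, Ifnb1 and Il6, and against that library alone Il10 (-1.16, limma adjusted p = 0.089) and Il6 (-0.72, limma adjusted p = 0.282) did not pass. Lif (-4.32 ± 0.50) and Osm (-3.39 ± 0.40), both of the interleukin-6 family, fell too. Il18bp, the soluble inhibitor of interleukin-18, was at 673, 624, 185 and 659 RPM against 16.6, 19.3 and 20.7 RPM (4.01 ± 0.40). Igf1, a growth factor of tissue macrophages and hepatocytes, was at 283, 305, 122 and 190.0 RPM against 7.20, 13.9 and 7.52 RPM (3.83 ± 0.33), with KC replicate 3 the lowest KC library. Pdgfc rose by 2.67 ± 0.28. Bmp2 (3.48 ± 0.52) and Bmp6 (3.48 ± 0.47), which sinusoidal endothelium makes to drive hepcidin, were highest in KC replicate 3, at 2.36 and 1.94 times the other KC libraries.

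Toll-like receptors and their adaptors were lower in KCs for 12 of 30 tested genes and higher for 5, with a median of -0.37, and in the RPM as deposited the balance turned, with 10 higher and 7 lower. Tlr13, a sensor of bacterial ribosomal RNA, and Tlr7, a sensor of single-stranded RNA, lie on the X chromosome and were outside the fit. Tlr13 was at 18.2, 21.8, 14.1 and 14.6 RPM in KCs and 54.1, 27.8 and 30.1 RPM in Ly6C-low macrophages (exact permutation test, two-sided p = 0.0571). Tlr7 was at 181, 114, 74.1 and 171 RPM against 490.4, 278 and 399 RPM (exact permutation test, two-sided p = 0.0571). Both were below every Ly6C-low library in every KC library, and Tlr8, at 111, 135, 68.1 and 118 RPM against 164, 158 and 130.1 RPM, overlapped in these RPM as deposited (exact permutation p = 0.114). Divided by the scaling factors, Tlr8 did not overlap either (exact permutation p = 0.0571). For 4 against 3 libraries the smallest two-sided p is 0.0571, so that none of these can pass 0.05. Among autosomal receptors, Tlr3, which binds double-stranded RNA, was at 43.8, 35.4, 72.2 and 49.3 RPM in KCs and 12.7, 3.31 and 11.8 RPM in Ly6C-low macrophages (1.89 ± 0.39), Tlr12 rose by 2.13 ± 0.27 and Tlr6 fell by 1.91 ± 0.35. The adaptors Myd88, at 91.6, 120.1, 90.9 and 130.3 RPM against 226, 222 and 223 RPM (-1.65 ± 0.17), and Ticam2 (-1.99 ± 0.17) were lower, as was the brake Irak3 (-1.66 ± 0.18). Slc15a3, a lysosomal peptide transporter, was at 635, 549, 212 and 654 RPM against 62.4, 98.6 and 72.3 RPM (2.01 ± 0.37), and Lbp, which delivers lipopolysaccharide, rose by 2.31 ± 0.26.

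Interferon-stimulated genes were called higher for 10 of 34 tested members and lower for 5, with a median of 0.28, and 19 did not pass. Irf7, the factor that amplifies type I interferon, was at 758, 861, 582.2 and 838 RPM in KCs and 164, 231 and 178 RPM in Ly6C-low macrophages (1.39 ± 0.20). Ifit2 was at 23.6, 36.1, 38.0 and 27.3 RPM against 5.71, 4.97 and 5.37 RPM (1.78 ± 0.23), and Rsad2 (viperin, 1.64 ± 0.39) and Ifi44 (1.22 ± 0.20) rose too. Irf1, which responds to interferon-gamma, was at 424, 441, 492 and 545 RPM against 689.5, 768 and 954 RPM (-1.35 ± 0.18), and Zbp1 (-1.29 ± 0.15) and Cxcl10 (-1.56 ± 0.27) fell. The share called higher was close to the 26.0% of all tested genes, and in the RPM as deposited the counts were 22 higher and 3 lower. The 5 falls came down to 3 without KC replicate 4, Ly6C-low replicate 2 or Ly6C-low replicate 3. Without KC replicate 3, 14 members were called higher and 5 lower.

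Genes of the Notch, TGF-beta and BMP pathways were called about equally in both directions, 11 of 33 higher and 12 lower, with a median of 0.08. In the RPM as deposited the counts were 17 higher and 7 lower. Hes1, a Notch target, was at 81.3, 96.8, 83.3 and 91.2 RPM in KCs and 258, 393 and 364 RPM in Ly6C-low macrophages (-2.5 ± 0.19). Nrarp, another Notch target (-2.42 ± 0.28), and Id2 (-2.38 ± 0.20) also fell. Hey1, a Notch target as well, was at 21.4, 21.0, 7.68 and 25.1 RPM against 1.49, 2.09 and 2.505 RPM (2.13 ± 0.38) and was lowest among KCs in replicate 3, as KC identity genes were. Eng, at 782, 1089, 1987 and 754 RPM against 36.3, 99.4 and 104 RPM (3.27 ± 0.41), the ligand Dll4 (2.70 ± 0.46) and Notch4 (3.30 ± 0.45) are endothelial genes and were highest in KC replicate 3. Among 24 tested receptors for growth factors and cytokines, 12 were lower in KCs and 4 higher (median -0.63), and in the RPM as deposited the counts were 4 higher and 6 lower. Ifngr1, the interferon-gamma receptor, was at 454, 506, 561 and 778 RPM against 2378, 1927 and 1808 RPM (-2.44 ± 0.21), and Il10ra fell by 2.58 ± 0.21. Il1r2, the decoy receptor of interleukin-1, fell by 3.54 ± 0.37. Il1r1 (2.38 ± 0.38) and Kit (1.76 ± 0.28) rose and were higher in KC replicate 3 than in the mean of the other KC libraries (2.28 and 1.6 times).

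Lysosomal genes had a median close to that of all genes, with 13 of 45 tested members higher, 10 lower and a median of 0.04. Without KC replicate 3, in which 40 of the members were below the mean of the other KC libraries, 18 were called higher and 8 lower. In the RPM as deposited the counts were 22 higher and 5 lower. Pld3 and Pld4 are exonucleases of the endolysosome that degrade single-stranded nucleic acids. Pld3 was higher in KCs, at 166, 148, 58.7 and 153 RPM against 16.3, 25.5 and 24.9 RPM (1.85 ± 0.35), and Pld4 was lower, at 505, 517, 289 and 533 RPM against 979, 763 and 901 RPM (-1.56 ± 0.23). Both were apart in every library, in opposite directions. Ctsf, cathepsin F, was at 61.4, 63.9, 33.7 and 53.5 RPM in KCs and 1.99, 2.27 and 3.22 RPM in Ly6C-low macrophages (3.43 ± 0.27). Lyz1 and Lyz2 encode near-identical lysozymes, so that reads may be split between them, and both were lower in KCs, Lyz1 at 4.83, 2.75, 7.33 and 5.2 RPM against 136, 281 and 246 RPM (-5.74 ± 0.32) and Lyz2 at 5980.2, 3916, 2913 and 7073 RPM against 9536, 14162 and 12026 RPM (-1.93 ± 0.34).

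Cell cycle genes were called higher for 12 of 47 tested members and lower for 4, with a median of 0.22, a share close to the 26.0% of all tested genes. Without KC replicate 2, 7 were called higher, without both Ly6C-low libraries with Y-linked reads 3, and in the RPM as deposited 25 higher and 3 lower. Tk1, thymidine kinase, was at 71.0, 105.2, 48.0 and 57.4 RPM in KCs and 10.9, 13.4 and 12.3 RPM in Ly6C-low macrophages (1.80 ± 0.26). Mcm2, a subunit of the replicative helicase, was at 74.1, 81.3, 73.5 and 102 RPM against 20.3, 24.8 and 22.3 RPM (1.24 ± 0.19), and Cdk1 rose by 1.02 ± 0.23. The cell cycle inhibitors Cdkn1a (p21), at 75.9, 77.9, 82.0 and 78.6 RPM against 309, 610.2 and 493 RPM (-3.11 ± 0.23), and Cdkn1b (p27), at 22.1, 20.8, 28.0 and 14.4 RPM against 104.9, 122 and 114 RPM (-2.98 ± 0.21), were lower in KCs.

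Markers of several other cell types were higher in the KC libraries than in the Ly6C-low libraries, and their part in the results above was not tested. All 23 tested genes of liver sinusoidal endothelial cells were called higher (median 3.63), with summed levels of 7788, 11219.5, 17893 and 7905 RPM in KC replicates 1 to 4 and 482, 979 and 1022 RPM in the Ly6C-low libraries. Flt4 was at 241, 421, 500.0 and 181 RPM against 2.40, 11.1 and 8.86 RPM (4.84 ± 0.46). Cdh5, VE-cadherin, is an endothelial gene that is also listed for KCs, was at 869.9, 1071, 733 and 759 RPM against 14.4, 26.7 and 38.9 RPM (4.46 ± 0.30), and was not raised in replicate 3. Hepatocyte genes were higher for 15 of 20 tested members and stellate cell and fibroblast genes for 15 of 18, with none lower. Some of these genes passed the filter on low values only with all KC libraries in it. Without KC replicates 1 and 4, it left 19 hepatocyte and 12 stellate cell and fibroblast genes, of which 14 and 10 were called higher. Ahsg, a plasma protein made by hepatocytes, was at 297, 254, 884 and 209 RPM against 1.41, 19.2 and 14.05 RPM (4.71 ± 0.71), Serpinc1 (antithrombin) differed by 4.72 ± 0.61, and Colec11, a stellate cell collectin, by 4.86 ± 0.35.

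Genes of lymphocytes were mostly higher in the KC libraries. All 12 tested B cell genes were higher in the KC libraries (median 4.32), with sums of 1316, 1300.1, 1865 and 1441 RPM against 118, 146 and 112 RPM. Pax5, the factor that commits cells to the B lineage, was at 199, 174, 451 and 272 RPM against 0.166, 0.784 and 0.984 RPM (6.92 ± 0.34). Pou2af1 (6.92 ± 0.27), Fcmr (6.55 ± 0.21) and Ms4a1, CD20 (5.43 ± 0.25), moved with them. T cell genes were higher for 12 of 15 tested members, with sums of 318, 327, 444 and 326 RPM against 45.9, 36.3 and 27.8 RPM, and natural killer (NK) cell genes for 11 of 12, with 1 lower, Klrd1 (-1.35 ± 0.36, and not called in the RPM as deposited), and sums of 486, 290.5, 1056 and 488 RPM against 19.1, 15.7 and 17.4 RPM. Without KC replicates 1 and 4, the filter on low values left 4 B cell, 4 T cell and 8 NK cell genes, of which 4, 2 and 7 were called higher. With the genes of the whole comparison kept, which had passed the filter with those libraries in it, 12, 12 and 10 were called higher. Lck, a kinase of T cells, was at 47.8, 61.0, 109.9 and 66.5 RPM against 0.579, 0.61 and 0.089 RPM (5.27 ± 0.31), Cd3e differed by 4.90 ± 0.28, and Il2rb by 5.38 ± 0.34. Gzmb, granzyme B, was at 79.9, 48.6, 281 and 62.4 RPM against 2.23, 2.88 and 1.7 RPM (4.33 ± 0.49). Except for Klrd1, each of the lymphocyte genes named here was highest in KC replicate 3 among the KC libraries.

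**Figure D4:**
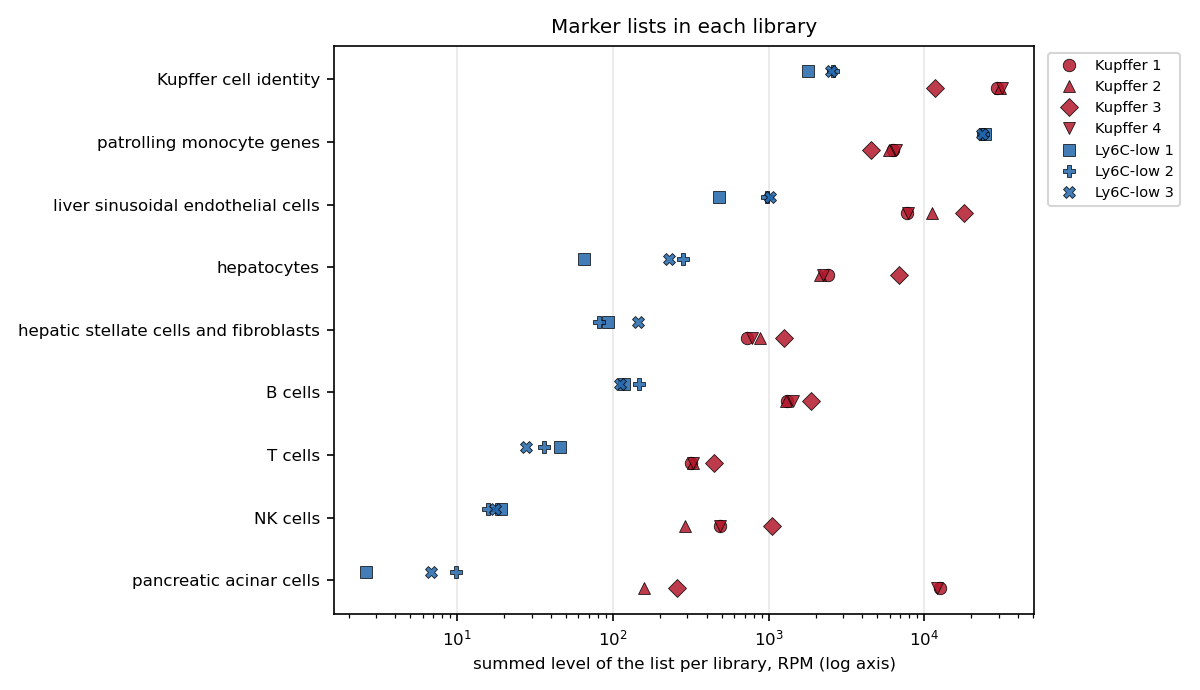
Summed RPM of each marker list per library (x axis, log scale), with 4 KC libraries in red and 3 Ly6C-low libraries in blue. Endothelial, hepatocyte, stellate, B, T and NK cell lists are higher in each KC library than in any Ly6C-low library, and the pancreatic list is at 12565 and 12029 RPM in KC replicates 1 and 4 against 158 and 257 RPM in replicates 2 and 3.

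Pancreatic acinar genes made up 4 of the 10 largest rises and split the KC libraries. The list was drawn up after these values were seen. Its 13 tested members were all called higher, and its summed level was 12565, 158, 257 and 12029 RPM in KC replicates 1 to 4 and 2.60, 9.8 and 6.80 RPM in the Ly6C-low libraries. Cela2a, an elastase, was at 3290.1, 31.2, 76.8 and 3632 RPM in the KC libraries and 0.166, 1.05 and 1.52 RPM in the Ly6C-low libraries (7.42 ± 1.47, limma adjusted p = 0.00168). Ctrb1, chymotrypsinogen, was at 2117, 16.1, 22.0 and 1086 RPM against 0.248, 0.087 and 0.984 RPM (6.62 ± 1.5), and Cpa1, a carboxypeptidase, at 1041, 10.3, 25.2 and 1457 RPM against 0.083, 0.436 and 0.716 RPM (6.36 ± 1.47). Their standard errors were the widest among the genes named here, since KC replicates 1 and 4 lay far above replicates 2 and 3, which still lay above the Ly6C-low libraries. Without replicates 1 and 4, the filter left 10771 genes, of which 1967 were called higher and 2349 lower, and 4 of the 13 pancreatic genes, of which 4 were called higher. With the 12025 genes kept, which had passed with those libraries in it, 2715 were called higher and 2380 lower, among them 12 pancreatic genes called higher. Without Ly6C-low replicates 2 and 3, 2 of the 13 pancreatic genes were called higher.

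KC replicate 3 divided the genes that were higher in KCs. The ratio of its RPM to the mean of replicates 1, 2 and 4 had a median of 1.06 over all tested genes and 1.29 over the genes called higher in KCs. It was 0.39 over KC identity genes, 0.59 over lysosomal genes, 0.60 over scavenger receptors and 0.62 over LXR targets. It was 1.99 over endothelial genes, 2.63 over hepatocyte genes, 1.64 over B cell genes, 1.53 over T cell genes and 1.93 over NK cell genes. Not all markers of other cells were above 1, with 0.44 over neutrophil genes, 0.87 over genes of eosinophils, basophils and mast cells, 0.95 over those of plasmacytoid dendritic cells and 0.03 over pancreatic genes. Over patrolling monocyte genes it was 0.86. Cd5l was at 0.27, Clec4f at 0.332 and Slc40a1 at 0.288 times the other KC libraries, and Ahsg at 3.49, Gzmb at 4.41 and Pax5 at 2.1 times. Without this library 3077 genes were called higher and 2852 lower, and the part of cells other than KCs in the genes called higher was not tested.

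**Figure D5:**
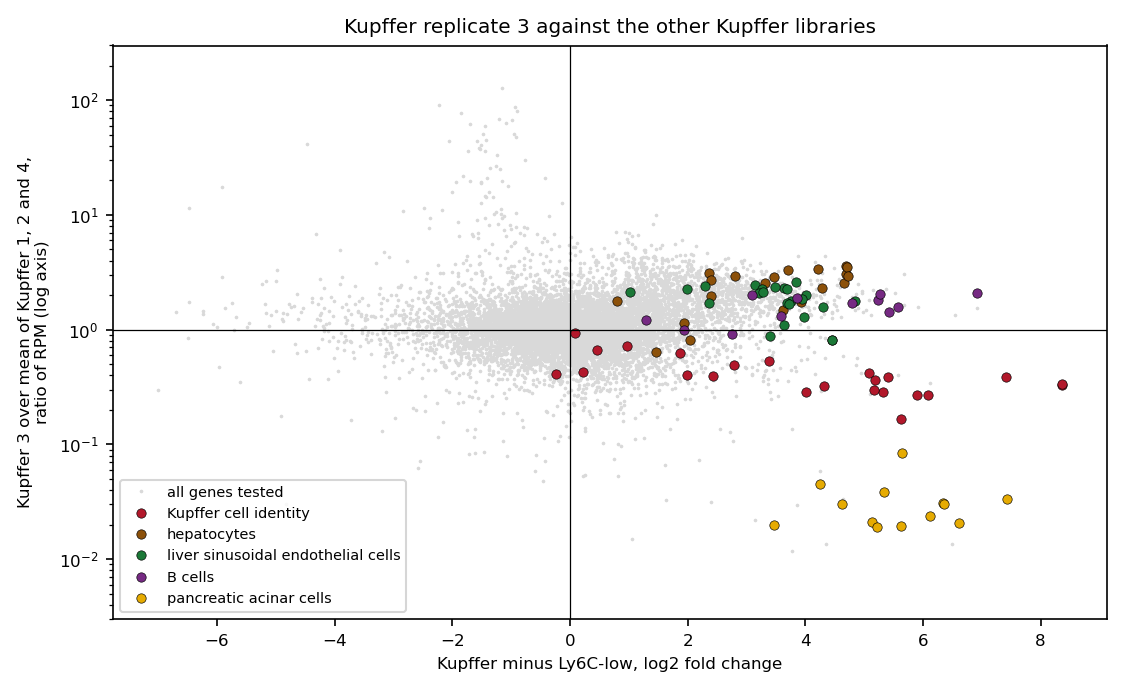
Ratio of the RPM in KC replicate 3 to the mean of KC replicates 1, 2 and 4 (y axis, log scale) against the log2 fold change between KCs and Ly6C-low macrophages (x axis), for the tested genes with a ratio above 0 in grey and for 5 lists in colour. The KC identity genes all lie below a ratio of 1, hepatocyte, endothelial and B cell genes mostly above it, and pancreatic genes far below it.

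The genes that set the groups furthest apart were also read in hepatic Ly6C-high and splenic Ly6C-low macrophages of wild-type mice, as a description in RPM. Clec4f was at 0.107 ± 0.0929 RPM (mean ± SD, n = 3) in Ly6C-high macrophages of wild-type liver and Timd4 at 0.0573 ± 0.0497 RPM, so that both were below their level in Ly6C-low macrophages. Cd5l was at 1.17 ± 0.392 RPM in hepatic Ly6C-high and 30.2 ± 9.803 RPM in splenic Ly6C-low macrophages, against 54.8 ± 13.8 RPM in hepatic Ly6C-low macrophages. Nr4a1 was at 5024 ± 284 RPM in hepatic Ly6C-high and 4897 ± 426 RPM in splenic Ly6C-low macrophages, so that KCs, at 132 ± 16.5 RPM (n = 4), were the lowest of these groups. Retnla was highest in hepatic Ly6C-low macrophages, at 413 ± 21.8 RPM, against 3.70 ± 0.467 RPM in hepatic Ly6C-high and 25.3 ± 18.4 RPM in splenic Ly6C-low macrophages. Ace and Serpinb10 were not particular to hepatic Ly6C-low macrophages, at 1205 ± 99.8 and 299 ± 21.1 RPM in splenic Ly6C-low macrophages. In Ly6C-low macrophages of liver from Rnaset2-/- mice, Cd5l was at 9639, 6753 and 5478 RPM in replicates 1 to 3, with replicate 1 above every KC library and the other two within their range. Clec4f was at 63.3, 17.7 and 53.1 RPM, C6 at 294, 37.7 and 51.8 RPM and Timd4 at 66.8, 10.04 and 13.02 RPM. For these 3 genes each of the libraries lay between the KC and the wild-type Ly6C-low libraries, and for C6 and Timd4 replicate 1 was far above the other two.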

How the data were processed

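RNA of 1 ng from sorted cells was amplified with the Ion AmpliSeq mouse transcriptome panel, which reads each gene by 1 amplicon, and sequenced on an Ion Proton. The reads were processed by the authors in Torrent Suite (AmpliSeqRNA plug-in), and the authors deposited a table of RPM per gene and library, with mm10 as the genome build. Because RPM are shares, a rise of abundant genes lowers the rest. RPM steps gave back whole reads for 100.0% of values (within 0.1 reads), at 11175843 to 12207718 reads per library.

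Genes at 1 RPM or more in at least 3 of the 7 libraries and placed on autosomes were tested (12025 genes). Genes were placed by their symbol in GENCODE vM21 (21370 genes of the whole table). The rest were placed by a RefSeq (GRCm38.p6) symbol (935) or synonym (428) where 1 matched. Of the 12515 genes past the filter, 379 on sex chromosomes and 111 without a place were left out. RPM were divided by DESeq2 median-ratio factors (1.16 to 1.21 for KCs, 0.763 to 0.829 for Ly6C-low macrophages), and log2(value + 1) was fitted with limma 3.58.1 (trend, R 4.3.3) with Benjamini-Hochberg adjustment over all tested genes. A gene was called at an adjusted p below 0.05 and a change above 1.5-fold. DESeq2 1.42.0 and edgeR 4.0.16 were run on the recovered reads as alternatives. Groups followed the labels. The fit was tested on simulated data with known answers before use. It recovered 15 of 50 genes changed by 1.7-fold and 50 of 50 changed by 4-fold. In the simulation 12097 of 12297 genes were unchanged, so that it does not show how the fit behaves where as many genes differ as here.

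Named genes were the 10 largest rises and falls among called genes with a mean of at least 10 RPM in the higher group and no overlap, the genes the study names, the sort genes, and in each list up to 5 called members per direction and up to 2 with the smallest change. Members that the autosome or low-value rule left out could be named without an adjusted p. The members, lists and tests were chosen with earlier results of these data known. Some genes that this rule takes are not reported here. Promoter windows came from RefSeq, and both strands were searched for the motifs.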

Additional observations from a re-analysis of the deposited data

Results flagged for a closer look

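Among the 200 values of genes and summed lists checked in the 4 KC libraries, 26 had a library that stood off from the other 3 by more than Dixon's criterion allows, where chance alone gives about 1 in 20. KC replicate 3 was that library for 24 of them.

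KC replicate 3 was lowest for Timd4 (166 RPM), Cd5l (2098 RPM), Lpl (329 RPM), Slc48a1 (134 RPM), Il18bp (185 RPM), Pld4 (289 RPM) and Pld3 (58.7 RPM). It was also lowest for the summed level of KC identity genes (11714 RPM), of LXR targets (7537 RPM), of platelet and megakaryocyte genes (424.7 RPM) and of the genes the study names (6890.2 RPM), which overlap with the KC identity list. Timd4 and Cd5l are on the KC identity list, whereas Pld4 was lower in KCs than in Ly6C-low macrophages.

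The same library was highest for Fcmr (147 RPM), Nfia (176 RPM), Scd1 (417 RPM), Cd55 (503 RPM), Notch4 (83.1 RPM), Dll4 (89.7 RPM), Serpinc1 (246 RPM), Ahsg (884 RPM) and Gzmb (281 RPM). It was highest too for the summed level of hepatocyte genes (6909.9 RPM), T cell genes (444 RPM), erythroid genes (295 RPM) and conventional dendritic cell genes (1686 RPM). KC replicate 2 stood off for Mrc1, where it was highest (1600.1 RPM), and Itgax, where it was lowest (88.0 RPM). What set these libraries apart was not tested.

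Genes of the Y chromosome, which are outside the genes compared, summed to 52.7 RPM in Ly6C-low replicate 2 and 52.0 RPM in Ly6C-low replicate 3 and were listed at 0 in Ly6C-low replicate 1 and in all 4 KC libraries.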

How the results depend on the processing

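Against 3125 genes higher and 2867 lower, the RPM as deposited gave 5311 and 1315, with 4440 of the 5992 calls shared. A 2-fold threshold gave 1798 lower. The next alternatives were chosen after the data were seen. Without Ly6C-low replicates 2 and 3, which held Y-linked reads, 1919 genes were higher and 1673 lower (1849 and 1671 with the same 12025 genes tested), with the remaining Ly6C-low library assumed to vary as the KC libraries do. Without KC replicates 1 and 4, which held the most pancreatic transcripts, 1967 were higher and 2349 lower, with 10771 genes past the filter on low values. With the same genes tested the counts were 2715 and 2380. TMM factors, a pseudocount of 0.1, a filter at 5 RPM or none, a fit of all 29 libraries, DESeq2 (3222 and 2748, with 5756 calls shared), edgeR (3075 and 2709), the adjusted p alone and the inclusion of all genes stayed within 1.5 times of both counts. Leaving out 1 library at a time, with the filter applied again, gave 2575 to 3077 higher and 2423 to 2852 lower.

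The replicate numbers did not pair the libraries, since deviations from the group means correlated at 0.16, -0.09 and -0.01 for numbers 1, 2 and 3. With the replicate number as a block, 2867 genes were higher and 2688 lower, and the scavenger receptors called lower rose from 4 to 7. The sterol genes called higher came down from 4 to 2, as did the MHC class II genes called higher. Neutrophil genes called lower came down from 2 to 1. The block also turned 2 named genes that were not called, Siglecf (-0.36) and Hmox1 (-0.031).

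Of 157 called genes named here, 139 were tested under every alternative, and 126 of these kept their call in all. Without Ly6C-low replicates 2 and 3, the calls of Il10 (-1.16) and Il6 (-0.72) were lost with smaller changes. Those of Ctrb1 (6.90), 2210010C04Rik (6.65), Cpa1 (6.92), Ccl24 (1.29), Stard4 (0.98), Pdcd1lg2 (-2.23), Tlr6 (-1.81) and Lyz2 (-1.60) were lost with changes of similar size. With the same genes tested, Axl (1.79), Hfe (-1.22) and Cxcl10 (-0.87) did not pass either, and fewer members were called among chemokines (7 lower), chemokine receptors and integrins (7 higher), growth receptors (6 lower), lysosomal genes (6 higher, 5 lower) and genes of conventional dendritic cells (2 higher). Without KC replicates 1 and 4, with the same genes tested, 8 lysosomal genes were higher. The fit of all 29 libraries lost the calls of Ccl24, Cd36, Hfe, H2-Aa, H2-Eb1 and Cdk1. No called gene changed direction. Among the 6 genes that were not called, Adgre1 (0.36) and Lyn (0.022) turned in the RPM as deposited. When 1 library at a time was left out, Adgre1 ranged from -0.42 to 0.10, the latter without KC replicate 3, and Siglecf from -0.35 to 0.81, below 0 without KC replicate 1 or 4. Hmox1 ranged from -0.27 to 0.52, below 0 without Ly6C-low replicate 1 or KC replicate 4, Apoe from -0.092 to 0.13, below 0 without Ly6C-low replicate 1 or KC replicate 1, and Id3 from -0.25 to 0.27, below 0 without Ly6C-low replicate 1. Without KC replicates 1 and 4, Siglecf lay at -1.09 (called lower with the same genes tested, limma adjusted p = 0.0474), Hmox1 at -0.24 and Apoe at -0.070. The cause of these moves was not tested.

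With 4 and 3 libraries, an exact permutation test cannot go below 0.0571.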

Other observations

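The calls among erythroid, platelet and neutrophil genes were not described above. Erythroid genes summed to 112, 94.4, 295 and 122 RPM in KC replicates 1 to 4 and 3.70, 7.80 and 5.2 RPM in the Ly6C-low libraries, and 3 of 4 tested members were higher in KCs. Platelet and megakaryocyte genes were higher for 4 of 5 tested members, with sums of 678, 636, 425 and 676 RPM against 71.3, 106 and 149 RPM. The platelet list shares Clec1b with the KC identity list, so that its sum is not of platelet genes alone. That sum was lowest among KCs in replicate 3, although the median ratio of replicate 3 to the other KC libraries was 1.67 over the tested members. Without KC replicates 1 and 4, the filter on low values left 3 of the platelet and megakaryocyte members, of which 2 were called higher. Neutrophil genes were higher for 5 of 9 tested members and lower for 2, with sums of 158, 328, 87.1 and 175 RPM against 96.6, 81.1 and 91.5 RPM that overlapped between the groups. These counts are small, and the neutrophil rises came down to 3 without KC replicate 4 or Ly6C-low replicate 1 and the falls to 1 without KC replicate 2, KC replicate 4 or any 1 of the Ly6C-low libraries. Without a KC library, the filter on low values left 7 or 8 of the 9 neutrophil genes.

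Dendritic cell genes did not move as a block. Of 16 tested genes of conventional dendritic cells, 7 were higher in KCs and 6 lower, with sums of 978, 844, 1686 and 888 RPM against 774, 876 and 728 RPM. Of 10 tested genes of plasmacytoid dendritic cells, 5 were higher and 1 lower, and their sums of 735, 730.3, 779 and 902 RPM lay above the 275, 281 and 294 RPM of the Ly6C-low libraries. Among the 5 was Bst2, the gene of the sort marker PDCA-1, which also enters the sums. In the RPM as deposited, 8 of these 10 genes were called higher and 1 lower. Genes of eosinophils, basophils and mast cells were higher for 4 of 6 tested members and lower for 1, and without Ly6C-low replicate 1 or 3 none was called lower.

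Macrophages of the peritoneum and the liver capsule lie next to both groups in the body. Of 12 tested genes listed for them, 6 were lower in KCs and 2 higher, with a median of -0.71, and 1 higher without KC replicate 1 or 4 or Ly6C-low replicate 1 or 2. In the RPM as deposited the counts were 4 higher and 6 lower. Prg4, lubricin, was at 0.328, 1.75, 1.05 and 0.839 RPM in KCs and 26.7, 50.9 and 81.0 RPM in Ly6C-low macrophages (-5.12 ± 0.39), and Thbs1, thrombospondin, at 11.7, 11.4, 12.6 and 11.99 RPM against 88.1, 206 and 293 RPM (-4.34 ± 0.35). Their summed level differed within the Ly6C-low group, at 284, 446 and 745 RPM, against 176, 191, 248 and 192 RPM in KCs.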
